A study of Mus musculus with 3 samples.

Results

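Goblet-like cells of mouse colon organoids were taken as the cells with the highest goblet score in each sc-RNAseq library, and they numbered 393 of 4909 filtered cells. The score was the mean of ln(1 + UMIs per 10000) over 6 goblet genes, namely Muc2, Fcgbp, Spink4, Tff3, Agr2 and Spdef, where a UMI (unique molecular identifier) marks a captured transcript molecule. A filtered cell had at least 5000 UMIs, at least 400 detected genes and at most 15% mitochondrial UMIs. Members were the top 8% of each library, so the number of members is set by the rule and says nothing about how common goblet cells were. The untreated library gave 85 members of 1058 cells, the library after 24 h of IFN-γ gave 73 of 917, and the library after 48 h gave 235 of 2934. Organoids of all 3 groups were grown from colon crypts of wild-type mice in the growth-factor-replete culture medium, not in a medium made for differentiation. The labels do not give the age, sex or number of the donor mice. Dead cells were removed by sorting with DAPI before capture in droplets (10x Genomics, 3' v3 chemistry).

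Each condition had 1 library. All comparisons below are therefore descriptions of these libraries without a test across samples. Depth differed between them, with a median of 49884 UMIs in untreated members, 72512 at 24 h and 12600 at 48 h, against 31388, 68162.5 and 10537 in the other cells of the same library. The summed UMIs of members were 5236210 untreated, 7155338 after 24 h and 3819724 after 48 h. The mitochondrial share had a median of 3.87%, 2.13% and 5.01% in members. Counts were summed over the members or over the other cells of a library and scaled to CPM, the count of a gene per 1000000 summed UMIs. Intervals are 95% intervals of counting error only, and they say nothing about variation between cultures.

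Goblet cells are the mucus-secreting cells of the colonic epithelium. They arise from progenitors in which Notch signalling is low and the transcription factor Atoh1 is active, and they fold, glycosylate and pack the gel-forming mucin Muc2 into granules that are released at the crypt and surface. IFN-γ is a cytokine of T cells and innate lymphoid cells that signals through the receptor chains Ifngr1 and Ifngr2 and the kinases Jak1 and Jak2, and it induces antigen presentation and cell-autonomous defence genes in epithelial cells.

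Scores of members were lower in the treated libraries. The median score of members was 2.77 without IFN-γ, 1.69 after 24 h and 1.13 after 48 h, and that of the other cells was 0.287, 0.114 and 0.224. The lowest member score was 1.90 in the untreated library with 1.87 in the next cell, 0.785 at 24 h with 0.765 next, and 0.679 at 48 h with a next cell that differed only in the fourth decimal. The 3 members nearest to the limit at 48 h held UMIs of Tff3 and Agr2 alone. When each cell was thinned at random to 5000 UMIs, 85 of 85 untreated members still had a UMI of at least 4 of the 6 scoring genes, whereas 40 of 73 members did so at 24 h and 92 of 235 at 48 h. The other cells reached this in 38 of 973, 0 of 844 and 2 of 2699 cells. The untreated other cells thus held a larger share of such cells than the treated ones. How far this enters ratios to other cells, or between other cells of different libraries, was not tested. Muc2 itself was found at this depth in 98.8%, 49.3% and 34.5% of members, and in 4.01%, 0.592% and 0.889% of other cells. These genes chose the members, so the values describe the selection and do not test the label. They show that treated members range from cells with most of the scoring genes to cells with Tff3 and Agr2 alone. For this reason the treated cells that reached the untreated limit of 1.90 are also given below, as 30 of the 73 members at 24 h and 32 of the 235 members at 48 h. These cells are called matched-score cells. Their median scores of 2.25 and 2.26 were still lower than in untreated members.

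**Figure D1:**
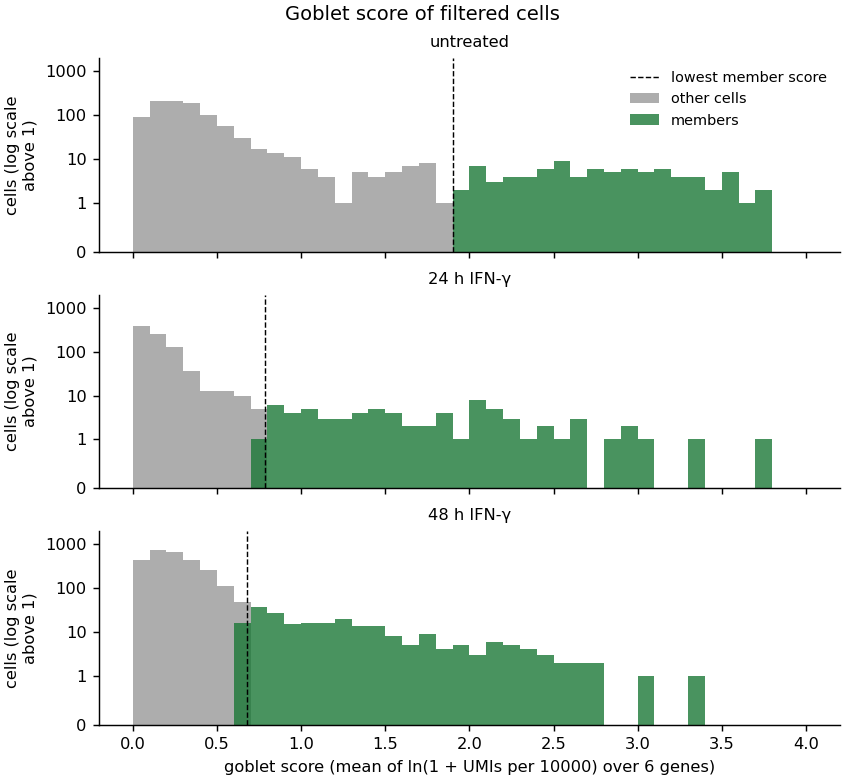
Number of filtered cells (logarithmic above 1) by goblet score in each library, with members in green, other cells in grey and the lowest member score as a dashed line. Green bars stand in front of grey ones where they share a bin. Untreated members lie above 1.90 and members of the treated libraries above 0.785 and 0.679, and in each library the counts of other cells run on to the limit without a gap.

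Immune, stromal, tuft and enteroendocrine markers were read in members as a check for other cells. Of 10 immune markers 6 were at 0 in untreated members, 8 at 24 h and 7 at 48 h, among them Ptprc and Cd3e in all 3 libraries, and the summed level of the list was 4.39, 2.10 and 4.19 CPM. The most abundant gene of the immune list was Itgam with 1.91 CPM in untreated members and Cd68 with 1.96 and 3.67 CPM at 24 h and 48 h. Of 10 stromal markers, 7, 6 and 6 were at 0, including Col1a1 and Col3a1, and the summed level of 4.58, 14.5 and 26.7 CPM was led by Pdgfrb in untreated members and by the actin gene Acta2 in treated ones. The tuft list summed to 2.10, 7.69 and 9.16 CPM with Pou2f3 as its most abundant gene, and Dclk1 and Trpm5 were at 0 in members of all 3 libraries. Enteroendocrine markers summed to 47.6 CPM in untreated members, 14.7 CPM at 24 h and 136 CPM at 48 h. The last value rested on 1 cell, which held 97.2% of the Chga and Chgb UMIs of all 48 h members and had 320 UMIs of these granins per 10000. Sct (secretin) led the enteroendocrine list in members of the untreated and the 24 h library with 19.7 and 9.50 CPM. Its levels in the other cells were 2.09 and 3.24 CPM. Most of the list went the other way, with 10 of 13 measured genes lower in untreated members and 12 of 13 at 24 h. Of all genes, 61.8% and 69.1% were lower there. At 48 h 7 of 10 were higher. In the other cells the list summed to 225, 306 and 83.2 CPM. No cell was removed as a doublet. Members of different libraries shared no cell barcode.

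Across all genes with at least 20 UMIs in members and other cells together, 38.2% of 14742 genes were higher in members of the untreated library, 30.9% of 14082 at 24 h and 45.6% of 13922 at 48 h. A difference of at least 2-fold upwards was found for 6.40%, 3.02% and 4.32% of the genes and downwards for 9.46%, 9.28% and 4.84%. Against this background, of 135 goblet genes in 5 lists outside the scoring genes, 114 of 128 measured genes were higher in untreated members, 83 of them by at least 2-fold. At 24 h 102 of 126 were higher and 48 by at least 2-fold, and at 48 h 105 of 124 and 45. The median log2 ratio of members to other cells over the 5 lists was 1.40, 0.52 and 0.58, and over all genes −0.13, −0.24 and −0.03. The members were picked by co-expressed genes of the same cells, so these values describe them and support nothing further.

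**Figure D2:**
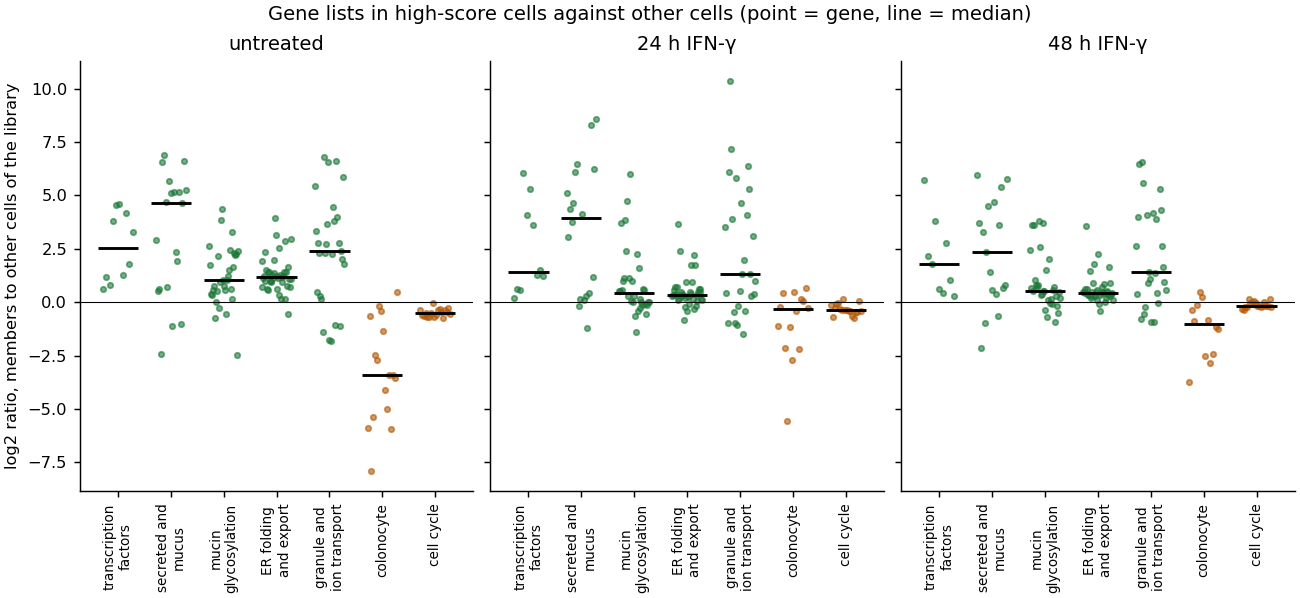
Log2 ratio of summed CPM in members to other cells of the same library for genes of 5 goblet lists (green) and of the colonocyte and cell cycle lists (brown). Points are genes and bars are medians. The goblet lists lie mostly above 0 in each library, with medians of 4.62, 3.93 and 2.36 for secreted products, and the colonocyte median is lowest in the untreated library with −3.42.

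All 10 goblet transcription factors were higher in members of the untreated and the 24 h library, as were the 9 measured at 48 h. Their median log2 ratio was 2.54, 1.40 and 1.78. Atoh1, the factor that sets the secretory fate, had 106 CPM in untreated members, 32.8 CPM at 24 h and 22.5 CPM at 48 h, against 5.81, 2.69 and 3.25 CPM in other cells. Creb3l1, a membrane-bound factor of secretory cells on chr2:91982328-92024502 (mm10, as all positions here), had 263, 62.9 and 70.4 CPM in members against 11.3, 0.954 and 1.34 CPM in other cells. Gfi1, which acts downstream of Atoh1, had 12, 3.07 and 2.88 CPM in members and 0.494, 0.0782 and 0.0921 CPM in other cells. The forkhead factor Foxa1 and the Krüppel-like factor Klf4 were shared more widely, with 38.4 and 134 CPM already in untreated other cells and log2 ratios of 0.80 and 0.61 in the untreated library.

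Among the 5 goblet lists, the secreted products had the highest median log2 ratio of members to other cells, with 4.62, 3.93 and 2.36. Of 21 listed genes, 16 of 19 measured were higher in untreated members, 16 of 18 at 24 h and 14 of 17 at 48 h. Reg4, a C-type lectin of secretory cells on chr3:98222156-98236748, had 931 CPM in untreated members, 17.2 CPM at 24 h and 7.85 CPM at 48 h. Sval1, a seminal-vesicle-like secreted protein gene on chr6:41951630-41956098, had 824, 333 and 92.2 CPM, against 6.87, 1.05 and 1.47 CPM in other cells, a log2 ratio of 6.91 (95% CI 6.74 to 7.08), 8.31 (7.96 to 8.69) and 5.97 (5.58 to 6.37). Ang4, an antimicrobial ribonuclease on chr14:51763878-51773590, had 477, 204 and 159 CPM in members and 13.1, 2.99 and 2.95 CPM in other cells. Guca2a and Guca2b, which encode the guanylin peptides that govern fluid secretion, had 447 and 218 CPM in untreated members, 147 and 108 CPM at 24 h, and 248 and 172 CPM at 48 h. The genes Muc3, Wfdc2 and Lypd8 had the opposite sign in the untreated library, with log2 ratios of −2.42, −1.03 and −1.14, and Muc3 is a membrane mucin of absorptive cells. Barcodes under 2000 UMIs, which may be droplets with free RNA or small or damaged cells, held 112, 5.01 and 3.02 CPM of Reg4, above the 24.5, 2.10 and 0.645 CPM of the other cells. The files start at 1390, 851 and 1624 UMIs per barcode, and the part of free RNA in low levels was not tested.

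The promoter windows of Reg4 and Sval1 are shown because these secreted genes had higher summed levels in members than in other cells of each library. They also differed in how they stood in treated members. The windows comprise the 250 bases before the start, without exonic bases, from RefSeq on GRCm38.p6 (mm10), at chr3:98221906-98222155 and chr6:41951378-41951627, both on the plus strand. Windows were searched on both strands for the E-box CAGCTG, the core CCGGAT of SPDEF sites, the IFN-γ-activated site TTCNNNGAA (GAS) and the core of interferon-stimulated response elements (ISRE), which is GAAA, any 2 bases and GAAA, and capitals mark a match.
Reg4: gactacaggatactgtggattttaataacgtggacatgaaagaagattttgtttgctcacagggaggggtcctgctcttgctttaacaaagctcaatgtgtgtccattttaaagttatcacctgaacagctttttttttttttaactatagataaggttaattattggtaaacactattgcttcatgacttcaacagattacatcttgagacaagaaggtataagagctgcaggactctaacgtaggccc
Sval1: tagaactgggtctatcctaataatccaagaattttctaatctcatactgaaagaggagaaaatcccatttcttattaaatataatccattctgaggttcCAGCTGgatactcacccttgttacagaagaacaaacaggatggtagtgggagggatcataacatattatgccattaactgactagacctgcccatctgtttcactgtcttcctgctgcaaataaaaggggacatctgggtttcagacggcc
Sval1 held 1 E-box that begins 151 bases before the start, and Reg4 held none of the 4 motifs. The E-box is found in 13.0% of 32851 windows. Some genes have several windows, and counted by gene it is found in 14.7% of 27025 genes and in 16 of the 97 goblet-list genes with a window (16.5%). The SPDEF core is found in 4.94% of all windows, in 5.63% of genes and in 7 of the 97 (7.22%). A match of letters is not a bound site, and a window without one says nothing about the factor.

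Enzymes of mucin glycosylation were higher in members for 26 of 31 measured genes in the untreated library, 23 of 32 at 24 h and 25 of 32 at 48 h, with median log2 ratios of 1.02, 0.41 and 0.53. The list holds 35 genes for the transferases that start, extend and cap mucin O-glycans and for sulphate supply. Galnt5, an enzyme that starts O-glycans, had 63.2 CPM in untreated members, 14.7 CPM at 24 h and 18.8 CPM at 48 h, and 3.05, 0.548 and 1.54 CPM in other cells. Gcnt3, which makes branched mucin cores, had 101, 14 and 3.67 CPM in members and 6.89, 0.219 and 0.276 CPM in other cells. Fut2, the fucosyltransferase that caps intestinal mucin, had 211, 76.6 and 115 CPM in members and 39.5, 16.1 and 19.1 CPM in other cells. The sulphate transporter Slc26a2 and the sulphate-activating enzyme Papss2 were not among the higher genes, with log2 ratios of −0.54 and −0.28 in the untreated library.

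Of 41 genes for protein folding and export from the endoplasmic reticulum (ER), 40 were higher in untreated members, 34 of 40 measured at 24 h and 37 of 40 at 48 h. The size of the difference was larger in the untreated library, where 27 genes were higher by at least 2-fold, against 5 at 24 h and 5 at 48 h, and the median log2 ratio was 1.18, 0.34 and 0.44. Hspa5, the main ER chaperone, had 1265 CPM in untreated members, 810 CPM at 24 h and 1129 CPM at 48 h, and 525, 736 and 887 CPM in other cells. Qsox1, which forms disulphide bonds in secreted proteins, had 114, 38.2 and 49.2 CPM against 14.7, 8.13 and 10.2 CPM. Ern2, the stress sensor restricted to mucus-secreting epithelia, had 129, 40.1 and 68.9 CPM against 14.7, 3.16 and 5.83 CPM.

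Granule, exocytosis and ion transport genes were higher in members for 22 of 27 measured in the untreated library, 19 of 26 at 24 h and 20 of 26 at 48 h, with median log2 ratios of 2.38, 1.32 and 1.41. Several of the 15 genes ranked by the smallest of their 3 log2 ratios came from this list. Among 3495 genes that could be ranked, 737 were higher in members of all 3 libraries and 54 by at least 2-fold. Tpsg1, a membrane-anchored tryptase gene on chr17:25369273-25374442, led them with 135, 41.6 and 31.2 CPM in members and 1.21, 0.0313 and 0.345 CPM in other cells, a log2 ratio of 6.80 (95% CI 6.40 to 7.23), 10.38 (8.51 to 13.43) and 6.49 (5.72 to 7.38). Sytl2, an effector of Rab27 in granule docking, had 190, 53.1 and 109 CPM against 11.9, 3.14 and 5.37 CPM. Rep15, a Rab15 effector, had 159, 44.9 and 32.7 CPM against 2.72, 1.13 and 2.21 CPM. Slc12a8, a transporter of the cation-chloride cotransporter family, had 358, 49.8 and 86.1 CPM against 8.28, 0.594 and 2.19 CPM. Kcnma1, the pore subunit of the large-conductance potassium channel on chr14:23289431-24014491, had 447, 140 and 490 CPM against 34.7, 9.34 and 29.4 CPM. Hepacam2, a membrane protein of the immunoglobulin family on chr6:3457096-3498298, had 273, 153 and 188 CPM against 19.2, 6.15 and 10.5 CPM. The other 9 genes of the ranking were Ramp1, Sval1, Ang4, Creb3l1, Bcas1, Car8, Mmp7, 5330417C22Rik and Ern2, and the lowest log2 ratio among them in any library was 3.13, for Ern2 in the untreated library. Cftr and Kcnn4, channels of fluid-secreting crypt cells, were lower, with log2 ratios of −1.09 and −1.13 in the untreated library.

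Other genes were lower in members. Among 3618 genes that could be ranked, 1502 were lower in members of all 3 libraries and 6 by at least 2-fold in each. The 10 named by rank were Ahnak, Efna5, Rdx, Htr4, Ano6, Kcnq1, Aqp4, Mpzl2, Lgr5 and Slc4a4. Lgr5, the receptor that marks crypt base stem cells, had 67.0, 17.3 and 49.2 CPM in members and 161, 59.4 and 93.4 CPM in other cells, a log2 ratio of −1.27 (95% CI −1.42 to −1.11), −1.78 (−2.05 to −1.52) and −0.92 (−1.14 to −0.71). Ahnak, a large membrane scaffold protein on chr19:8989284-9076914, had 171, 52.4 and 56.8 CPM against 557, 154 and 198 CPM. Of all genes, 61.8%, 69.1% and 54.4% were lower in members of the 3 libraries. Of 16 colonocyte genes 15 were lower in untreated members, 9 of 14 measured at 24 h and 10 of 12 at 48 h, and their median log2 ratio was −3.42, −0.33 and −1.04. Their summed level was 432 CPM in untreated members and 2062 CPM in other cells, 316 and 374 CPM at 24 h, and 271 and 375 CPM at 48 h. Car1, the carbonic anhydrase of colonocytes, had 102 CPM in untreated members and 1090 CPM in other cells, 104 and 99.6 CPM at 24 h, and 11.3 and 60.4 CPM at 48 h. All 18 cell cycle genes were lower in untreated members, 16 at 24 h and 14 at 48 h, by small amounts with medians of −0.51, −0.37 and −0.17. Mki67 was found in 49.4% of untreated members and 67.8% of other cells at equal depth of 5000 UMIs per cell, in 61.6% and 74.6% at 24 h, and in 69.8% and 72.9% at 48 h.

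Genes of the Notch pathway did not all stand on the same side. Of 16 listed, 5 of 14 measured were higher in untreated members, 6 of 14 at 24 h and 3 of 13 at 48 h. The shares of all genes that were higher were 38.2%, 30.9% and 45.6%. Notch genes had medians of −0.42, −0.23 and −0.53 on the log2 scale, against −0.13, −0.24 and −0.03 for all genes. The untreated count and the 24 h median therefore do not set this list apart from all genes. The ligands Dll1 and Dll4 were higher in members of each library, Dll4 with 8.78, 3.49 and 4.97 CPM in members and 2.36, 0.329 and 0.322 CPM in other cells. The receptors Notch1 and Notch2 were lower in each library, Notch1 with 7.07, 5.03 and 9.42 CPM against 20.8, 14.6 and 19.3 CPM. Hes1, the target gene through which Notch represses Atoh1, had 94.9, 30.7 and 19.6 CPM in members and 166, 41.5 and 30.6 CPM in other cells.

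The design compares treated with untreated cells, and the same was done within the members. Among all genes with at least 20 UMIs over both groups of members, 25.8% of 11689 genes were lower by at least 2-fold at 24 h and 4.37% higher, and 10.1% of 11611 were lower at 48 h and 5.39% higher. The median log2 ratio of all genes was −0.45 at 24 h and −0.05 at 48 h. Scaling by TMM factors in place of totals raised each 24 h ratio by 0.45 and each 48 h ratio by 0.04, so that the median of all genes became 0.00 at both times. A ratio near −0.45 at 24 h therefore matches the general shift. Both treated libraries are compared with the same 85 untreated members, so a deviation of those cells enters both ratios. In addition, treated members had lower scores, and a lower level of a goblet gene per cell and a larger fraction of weakly goblet-like cells among the members cannot be told apart.

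Of 126 measured goblet genes 116 were lower in members at 24 h, where 70.6% of all genes were lower, and 75 by at least 2-fold, with a median log2 ratio of −1.28. At 48 h 107 of 126 were lower, where 53.4% of all genes were, and 56 by at least 2-fold, with a median of −0.87. With TMM factors 101 were lower at 24 h and 107 at 48 h, with medians of −0.83 and −0.83. The lists in order of secretion had medians at 24 h and 48 h of −1.41 and −1.42 for transcription factors, −1.30 and −1.59 for secreted products, −1.75 and −1.35 for glycosylation, −0.76 and −0.49 for ER folding and export, and −1.77 and −1.13 for granule and ion transport. ER genes lower at 24 h were 37 of 40 on totals and 28 of 40 with TMM factors, so the direction of some of these genes rests on the scaling. In the other cells the ER list stood at 22 higher and 19 lower of 41 at 24 h on totals, where 26.5% of 15797 genes were higher. TMM factors raised each of these ratios by 0.35, and 33 of the 41 were then higher. The share of all genes higher on that scale is not given here, so the 33 cannot be set beside the 26.5%. In matched-score cells, the goblet genes were lower in 108 of 125 at 24 h and in 93 of 124 at 48 h, with medians of −0.75 and −0.50, against a background of 69.1% and 62.2% of all genes lower and medians of −0.36 and −0.18. The medians lie nearer to 0 than in all members, but matched-score cells were picked by a higher limit on the same score, and genes expressed together with the scoring genes follow that choice.

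**Figure D3:**
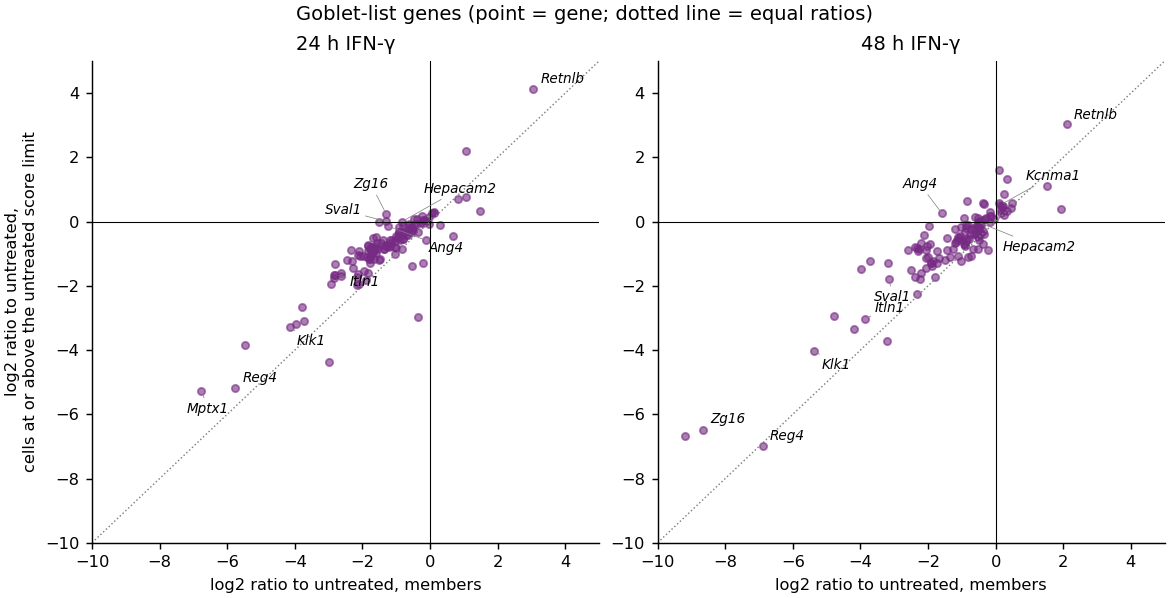
Log2 ratio to untreated members for goblet-list genes in all treated members (horizontal axis) and in treated cells at or above the untreated score limit (vertical axis), at 24 h and 48 h. Points are genes, ratios are on summed CPM, and points above the dotted line are less reduced, or more increased, in matched-score cells. Hepacam2 lies at −0.00 on the vertical axis at 24 h, whereas Reg4 lies at −5.17, and a gene with no UMI, such as Mptx1 at 48 h, is drawn at its bound.

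The 10 genes ranked first for a lower level in members at both times were Mptx1, Reg4, Klk1, Lyz1, 5330417C22Rik, Itln1, Abcb1a, Gna14, Ramp1 and Bcas1. Reg4 stood at a log2 ratio of −5.76 (95% CI −6.03 to −5.50) at 24 h and −6.89 (−7.46 to −6.37) at 48 h. Reg4 also stood lower in the other cells, by −3.54 and −5.25. A larger share of untreated than of treated other cells had at least 4 scoring genes, and its part in these ratios was not tested. Klk1, a kallikrein protease gene on chr7:44225360-44229618, had 239 CPM in untreated members, 13.4 CPM after 24 h and 5.76 CPM after 48 h, a log2 ratio of −4.15 (−4.47 to −3.85) and −5.37 (−6.05 to −4.77). Itln1, which encodes intelectin, a lectin that binds microbial sugars, had 360, 51.6 and 24.9 CPM, a log2 ratio of −2.80 (−2.97 to −2.64) and −3.85 (−4.17 to −3.56). Lyz1, the lysozyme of Paneth and related cells, had 1016, 61.1 and 7.59 CPM, and Mptx1, a pentraxin, had 455, 4.19 and 0 CPM. The 48 h members held 0 UMIs of Mptx1 against 2384 in untreated members, a log2 ratio of −9.18 or lower when 3 counts over the group are taken as the floor. Gna14 and Abcb1a, a G-protein subunit and a drug efflux pump, were not goblet-list genes, and Abcb1a was lower in members than in other cells of the untreated library, with 126 and 226 CPM.

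Reg4 and Klk1 were also low in matched-score cells, and some other goblet genes were not. Reg4 had 25.8 CPM in them at 24 h and 7.36 CPM at 48 h, and Klk1 had 24.5 and 14.7 CPM, far below the untreated members in both genes. Ang4, which is not among the 10 ranked genes, had 431 and 570 CPM in matched-score cells against 477 CPM in untreated members, and Hepacam2 had 272 and 271 CPM against 273 CPM, with log2 ratios of −0.00 (95% CI −0.14 to 0.14) and −0.01 (−0.24 to 0.21). Sval1 stood at 829 CPM at 24 h but 239 CPM at 48 h, against 824 CPM in untreated members. Zg16, a lectin of the mucus that keeps bacteria apart from the epithelium, had 629 CPM in matched-score cells at 24 h and 5.89 CPM at 48 h. In all 24 h members 1 cell held 61.1% of the Zg16 UMIs, so this value describes few cells.

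Of 126 measured goblet genes, 10 stood higher in treated members at 24 h and 19 at 48 h, beside 29.4% and 46.6% of all genes. Retnlb, which encodes a bactericidal resistin-like peptide, had 9.36 CPM in untreated members, 78.1 CPM after 24 h and 40.1 CPM after 48 h, a log2 ratio of 3.06 (95% CI 2.64 to 3.51) and 2.10 (1.62 to 2.59). It was higher in treated other cells too, with 3.82 and 4.08 CPM, and it reached 165 and 76.6 CPM in matched-score cells. At equal depth it was found in 4.71% of untreated members, 20.5% at 24 h and 11.5% at 48 h, and in 1.66% and 2.15% of other cells at 24 h and 48 h. Untreated other cells had no Retnlb UMI after thinning, although their full counts held 0.269 CPM. The top 5 cells held 51.0%, 56.7% and 42.5% of the Retnlb UMIs of untreated, 24 h and 48 h members, so these sums rest on few cells. Nlrp6, an inflammasome sensor linked to mucus release, had 13.0, 36.5 and 36.9 CPM in members and 45.3, 70.8 and 62.9 CPM in other cells. Kcnma1 was lower at 24 h, with log2 ratios of −1.68 and 0.13 in members of the 24 h and 48 h libraries. Matched-score cells had 225 and 639 CPM of Kcnma1 against 447 CPM in untreated members. Lypd8, a membrane protein that keeps flagellated bacteria off the epithelium, had 434, 909 and 490 CPM in members, and its levels in other cells were 955, 850 and 778 CPM.

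**Figure D4:**
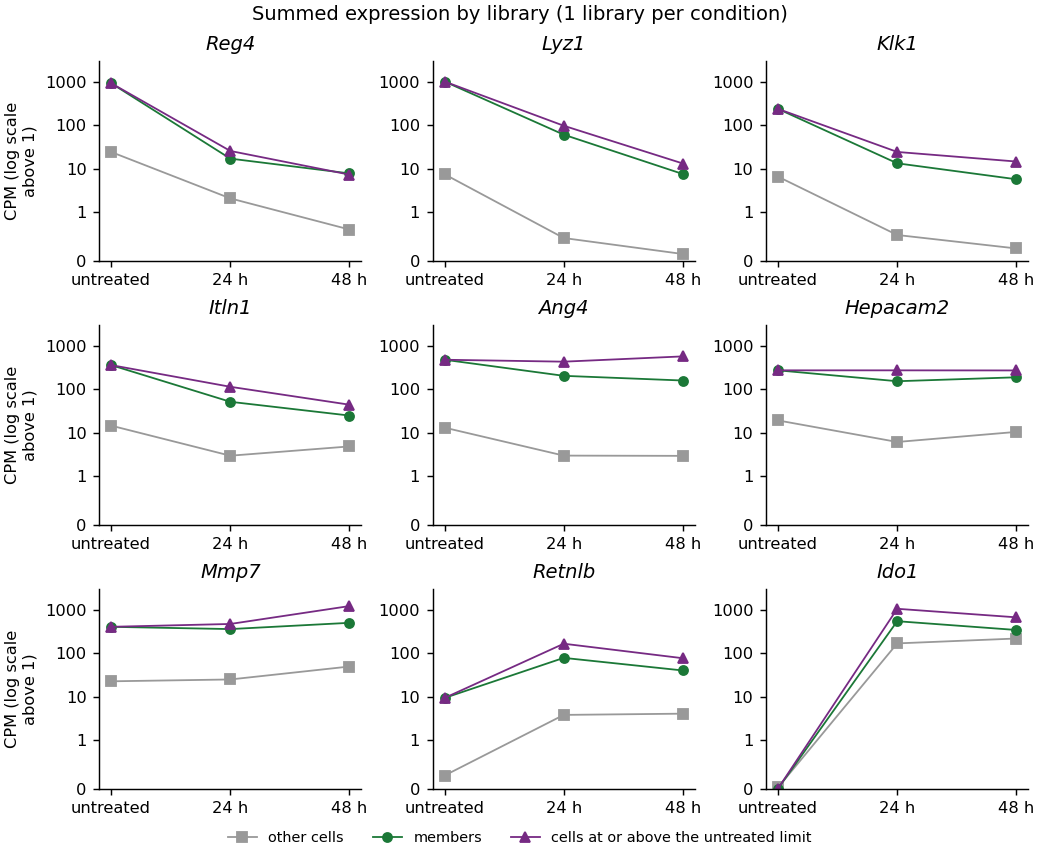
Summed CPM of 9 genes (logarithmic above 1) in untreated, 24 h and 48 h libraries for members (green circles), other cells (grey squares) and cells at or above the untreated score limit (purple triangles), which are the members themselves in the untreated library. Reg4, Lyz1, Klk1 and Itln1 are lower in each treated group, Hepacam2 is level at 272 and 271 CPM in matched-score cells, and Retnlb and Ido1 are higher.

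The members were not uniform. In the untreated library, 23 of 85 members had a Lyz1 UMI at equal depth, 46 had Reg4, 28 had Kit, 45 had Ang4, 13 had Clca1 and 11 had Zg16. In the same order, 3.91%, 6.99%, 2.36%, 5.45%, 0.719% and 1.34% of other cells had a UMI of these genes. The part of free RNA in these shares was not tested. Reg4 and Kit mark deep crypt secretory cells, the goblet-related cells that neighbour stem cells at the colonic crypt base, and Lyz1 and Mmp7 are genes of Paneth cells, their counterpart in the small intestine. Of 8 genes listed for such cells, Kit, Nupr1, Mmp7 and Lyz1 were measured in all 3 libraries and were higher in members of each. Nupr1, a stress-responsive chromatin protein, differed least, with log2 ratios of 1.23, 1.30 and 0.82. The list also holds Defa24, measured in the untreated library alone, and the IFN-γ response gene Ido1, measured in the treated libraries alone. Of the 23 members with Lyz1, 20 also had Reg4 and 17 had Itln1, where 46 and 44 of all 85 members had these genes. Kit was found in 9 of the 23, Clca1 in 4 and Zg16 in 1. Across the 85 members the levels of Lyz1 and Reg4 had a Spearman rho of 0.546, and those of Lyz1 and Itln1 of 0.503. These values describe cells of 1 library that share their preparation and have sparse counts.

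A few cells set the sums of several of these genes. The cell with the most Mptx1 held 70.8% of the Mptx1 UMIs of untreated members, and the top cells for Lyz1 and Reg4 held 36.0% and 36.3%. The median untreated member had 2.27 Reg4 UMIs per 10000 and the highest had 84.2. For Lyz1 the median was 0 and the highest was 89.1. Without the member with the most UMIs of each gene, the log2 ratios at 24 h and 48 h were −6.13 and −7.47 or lower for Mptx1, −5.42 and −6.51 for Reg4, −4.07 and −5.42 for Klk1, and −4.01 and −6.80 for Lyz1, an alternative chosen after the data had been seen. Hepacam2 was spread evenly, as all 85 untreated members had a UMI, with 0.449 per 10000 in the lowest, 2.84 in the median and 11.2 in the highest member.

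Lyz1, Reg4 and Kit were found in few treated members. At 24 h Lyz1 was found in 8 of 73 members at equal depth, Reg4 in 6 and Kit in 7, and at 48 h in 3, 10 and 13 of 235. Of other cells 0.355%, 0.829% and 0.355% had a UMI of these genes at 24 h, and 0.111%, 0.445% and 0.333% at 48 h. Kit, the receptor tyrosine kinase of deep crypt secretory cells, had 68.2, 7.83 and 9.95 CPM in members. Of the 6 deep crypt genes measured in members at 24 h against untreated, Kit, Lyz1 and Defa24 were lower by at least 2-fold, as were 25.8% of all genes. Ido1 was higher by at least 2-fold, as were 4.37% of all genes. Nupr1 had 567, 439 and 398 CPM, a log2 ratio at 24 h of −0.37 on totals and 0.08 with TMM factors, and Mmp7 had −0.17 and 0.28. Mmp7, the matrilysin protease on chr9:7692090-7699585 that activates antimicrobial peptides in the small intestine, had 404, 358 and 499 CPM in members and 22.6, 24.9 and 49.4 CPM in other cells. It was found in 48.2%, 61.6% and 54.9% of members at equal depth, against 8.74%, 9.72% and 20.3% of other cells. In matched-score cells it had 470 and 1212 CPM.

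All 34 IFN-γ response genes listed were higher in treated members at 24 h and at 48 h, where 29.4% and 46.6% of all genes were higher. By at least 2-fold 33 of them were higher at each time, beside 4.37% and 5.39% of all genes. The median was 6.37 and 7.03, and 12 of the 34 ratios at each time are lower bounds because untreated members had no UMI. In other cells the list also had 34 of 34 genes higher, beside 26.5% of 15797 genes at 24 h and 37.4% of 15743 at 48 h, with medians of 7.14 and 7.64 and 2 bounds, so the medians of both cell groups are not on equal terms. The 10 genes ranked first for a higher level at both times were Gbp2, Iigp1, Cd74, Cxcl10, Psmb8, Cxcl9, Igtp, Ido1, Gm4841 and Ubd. The ratios of Iigp1, Cxcl9, Igtp, Ido1 and Ubd are lower bounds, with 0 untreated UMIs set to 3, and the other 5 genes had 1 to 3 untreated UMIs, so the order within these 10 cannot be read. Gbp2, a guanylate-binding protein of cell-autonomous defence, had 1 UMI in untreated members, 678 CPM after 24 h and 787 CPM after 48 h, a log2 ratio of 11.79 (95% CI 9.31 to 17.10) and 12.01 (9.53 to 17.31). Cd74, the invariant chain of MHC class II, had 3 UMIs in untreated members, 1160 CPM and 2095 CPM, a log2 ratio of 10.98 (9.44 to 13.26) and 11.84 (10.29 to 14.11). Igtp, an immunity-related GTPase gene on chr11:58199556-58207591, had no UMI in untreated members, 454 CPM at 24 h and 430 CPM at 48 h, and was at least 9.63 and 9.55 higher on the log2 scale. The chemokine gene Cxcl10 on chr5:92346638-92348889 had 2 UMIs in untreated members, 878 CPM and 773 CPM, a log2 ratio of 11.17 (9.31 to 14.21) and 10.98 (9.13 to 14.03).

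Levels of the list in treated members and other cells of the same library were close. Members had 15 genes higher and 19 lower than other cells at 24 h, and 20 higher and 14 lower at 48 h, with median log2 ratios of −0.04 and 0.08, and with TMM factors 20 were higher at 24 h. Of all genes, 30.9% and 45.6% were higher in members at 24 h and 48 h on totals, with medians of −0.24 and −0.03. Ido1, the tryptophan-degrading enzyme indoleamine 2,3-dioxygenase on chr8:24584136-24597009, stood apart. It had no UMI in untreated members, 544 CPM at 24 h and 342 CPM at 48 h, against 168 and 218 CPM in other cells, a log2 ratio of members to other cells of 1.69 (95% CI 1.64 to 1.75) and 0.65 (0.57 to 0.73). Matched-score cells had 1049 and 667 CPM of Ido1. At equal depth Ido1 was found in 72.6% of members and 45.9% of other cells at 24 h, and in 57.4% and 48.6% at 48 h, and the barcodes under 2000 UMIs held 140 and 126 CPM. Some genes of MHC class II expression were lower in members. Ciita, the master regulator of these genes, had 19.7 and 64.1 CPM in members and 47.8 and 102 CPM in other cells, a log2 ratio of −1.28 and −0.67. H2-Ab1, a class II chain, had 119 and 414 CPM in members and 167 and 575 CPM in other cells, and 38.9 and 247 CPM in matched-score cells. Cd74 was closer to level, with log2 ratios of members to other cells of −0.08 and −0.16. The class I genes H2-K1 and H2-D1 had 827 and 773 CPM in members at 24 h and 664 and 585 CPM in other cells.

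For 17 genes of the list that had more than 3 untreated UMIs in both cell groups, the ratio of 24 h to untreated was compared between members and other cells. It was larger in members for Psmb9, Tap1, Gbp7, Casp1 and H2-DMa, and also for others such as B2m and H2-K1. The log2 ratio was 7.26 (95% CI 6.33 to 8.39) against 6.07 (5.84 to 6.31) for the immunoproteasome subunit Psmb9. For the peptide transporter Tap1 it was 6.08 (5.38 to 6.89) against 5.02 (4.84 to 5.21). The ratio was smaller in members for Socs1, Irf1, Irgm1 and Tapbp, among others, at 3.45 against 3.85 for the transcription factor Irf1. For Psmb9, Tap1 and Irf1 the difference is small beside the ratios themselves. For Casp1, with a log2 ratio of 1.01 in members, it is a larger part of the ratio. These differences were not tested. The receptor and kinase genes Ifngr1, Ifngr2, Jak1 and Jak2 were all lower in members at 24 h, where 70.6% of all genes were lower. The median of their log2 ratios was −0.72 on totals and −0.27 with TMM factors. At 48 h 3 of the 4 were lower, where 53.4% of all genes were, with a median of −0.28 on totals. Ifngr1 had 116, 75.6 and 99.5 CPM in members and 153, 75.1 and 81.1 CPM in other cells.

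**Figure D5:**
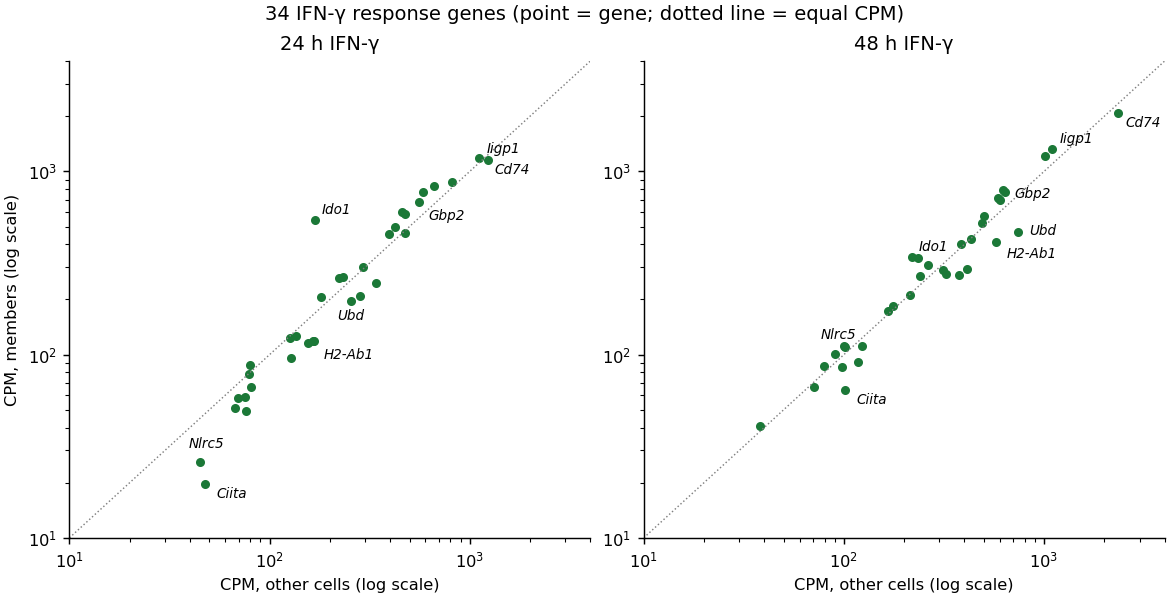
Summed CPM of 34 IFN-γ response genes in other cells (horizontal axis) and members (vertical axis) of the 24 h and the 48 h library, both on logarithmic axes. Points are genes and the dotted line marks equal levels. Most genes follow the line, Ido1 lies above it at 544 against 168 CPM at 24 h, and Ciita lies below it at 19.7 against 47.8 CPM.

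The promoter windows of Igtp and Cxcl10 are shown because both genes had almost no UMIs in untreated members and 430 to 878 CPM in treated ones. They lie at chr11:58199306-58199555 on the plus strand and at chr5:92348890-92349139 on the minus strand (RefSeq, GRCm38.p6), hold no exonic bases, and the window of Cxcl10 lies within the bounds of Art3. Capitals mark matches to GAS or to the ISRE core.
Igtp: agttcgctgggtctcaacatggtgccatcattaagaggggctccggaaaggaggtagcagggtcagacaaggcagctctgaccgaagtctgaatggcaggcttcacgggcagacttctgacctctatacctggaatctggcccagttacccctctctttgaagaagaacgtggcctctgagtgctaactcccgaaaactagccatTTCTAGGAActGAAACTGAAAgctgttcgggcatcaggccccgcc
Cxcl10: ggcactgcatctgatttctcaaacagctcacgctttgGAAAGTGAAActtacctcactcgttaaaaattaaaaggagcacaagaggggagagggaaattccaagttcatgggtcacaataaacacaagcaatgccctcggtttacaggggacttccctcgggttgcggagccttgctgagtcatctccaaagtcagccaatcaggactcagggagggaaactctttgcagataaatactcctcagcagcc
In Igtp a GAS match begins 45 bases and an ISRE core match 34 bases before the start, without overlap, and in Cxcl10 an ISRE core match begins 213 bases before it. The ISRE core is found in 2.98% and GAS in 7.02% of all windows of this length, and by gene in 3.46% and 8.13%. Of 25 response-list genes with a window, 8 held the ISRE core (32.0%) and 5 held GAS, and of 97 goblet-list genes 3 and 8 did so. Of the 10 genes ranked first for a lower level in treated members, 8 had a window and 0 of these held either motif.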

How the data were processed

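Colon organoids were profiled by sc-RNAseq in 3 libraries, 1 per condition. The authors deposited counts of UMIs per gene and barcode for each library, made with Cell Ranger 6.0.1 on mm10 per the submitters' processing notes, and the annotation release is not given in the sources used here. Gene bounds and promoter windows come from the reference annotation and from RefSeq (GRCm38.p6). Close paralogs (Lyz1, Mptx1, Ang4, guanylate-binding protein genes) may share reads, so their split is uncertain.

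Barcodes in the files numbered 20841 (untreated), 17227 (24 h) and 22478 (48 h), and the filter and score are given above. No doublet was removed and free RNA was not subtracted. Filtered cells shared 1, 4 and 1 barcodes between pairs of libraries. Counts were summed over cells and scaled to CPM. Genes with at least 20 UMIs over both groups were compared by log2 ratio of CPM. Intervals are exact conditional binomial 95% intervals, and 3 counts over a group stand for 0. Such a ratio was left out where this floor lay beyond the level of the other group. Shares of cells with a UMI come from cells thinned to 5000 UMIs. With 1 library per condition no test was possible. Members and gene lists were chosen with earlier results of these data known. Named genes were the genes of the fixed lists, from which examples were picked after their values were seen, and 3 sets by rank, taken from genes whose mean reached 50 CPM: the 15 highest and 10 lowest in members against other cells by the weakest of the 3 libraries (with a UMI in at least 10% of the cells), the 10 highest and 10 lowest in treated members with the same sign at both times, and, without the CPM limit, 5 and 5 response genes by the difference in the 24 h ratio between members and other cells. Not every gene these rules name is reported here. The last rule was limited, after the data were seen, to genes with over 3 untreated UMIs in both. Alternatives varied the UMI minimum, the share of cells taken, the score limit, the gene filter, the averaging and the scaling (TMM factors from edgeR 4.0.16 in R 4.3.3). Python 3.11.15, numpy 2.4.6, scipy 1.17.1, pandas 2.3.3 and matplotlib 3.10.9 were used, and the code was tested on simulated data.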

Additional observations from a re-analysis of the deposited data

Results flagged for a closer look

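Among the listed genes, 5 are given here because members and other cells differed from their untreated counterparts in opposite directions, with intervals that leave out 0 and the same directions with TMM factors, by a log2 ratio of at least 0.25 in each at both times or at least 1 in each at 1 time. Further listed genes had opposite directions without meeting these limits. In each case the difference between the cell groups was not tested. Pdia3, an ER disulphide isomerase, had log2 ratios to untreated of −0.81 in members and 0.46 in other cells at 24 h, and of −0.57 and 0.47 at 48 h. Hsp90b1, the ER chaperone of the Hsp90 family, had −0.54 and 0.35 at 24 h and −0.49 and 0.26 at 48 h. Chgb, a granin of enteroendocrine cells, had 4.15 in members and −1.48 in other cells at 48 h, and 1 member held 97.2% of the granin UMIs there. Pyy, an enteroendocrine hormone gene, had −2.60 and 2.70 at 24 h. Sytl4, a Rab27 effector of granule exocytosis, had −1.82 and 1.11 at 24 h.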

How the results depend on the processing

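A list median was taken to move when it shifted by more than the median half-width of its genes' 95% intervals, which was 0.15 to 0.23 on the log2 scale for the goblet lists and 0.57 and 0.58 for the IFN-γ response list. Of 77 alternatives to the list medians, 61 stayed within this, 16 moved and 0 changed direction. In the untreated library the common score limit picks the same members, so that alternative could not differ there. The goblet-list median of members against other cells moved at 24 h to 0.89 with the top 4% of cells, to 0.96 at the common score limit and to 0.76 without cells above the 95th percentile of UMIs, and at 48 h to 0.94 at the common limit. The median of treated against untreated members moved at 24 h to −0.94 with the top 4%, −0.75 at the common limit, −1.07 as a mean over cells, −0.83 with TMM factors and −1.08 without the cells above the 95th percentile, and at 48 h to −0.50 at the common limit. The IFN-γ response median moved at 24 h to 6.95 with a minimum of 2000 UMIs, 5.27 with the top 4%, 7.12 with the top 12% and 3.89 over the 22 genes with a UMI in each group, and at 48 h to 7.62 with the top 12% and 4.21 over 22 genes. The last values hold fewer genes by construction, and the cause of the others was not tested. Of 1370 alternatives to genes of the 3 sets by rank, 978 stayed within the gene's own interval, 392 moved and 0 changed direction. Most of these genes were picked for large ratios in the same data, so a kept direction was largely set by that choice. This count covers each gene only in the comparison of its set, and it leaves out the other listed genes. Some of the values it leaves out changed direction with TMM factors, such as those of Nupr1 and Mmp7 in members at 24 h against untreated. No paired analysis was possible because each condition had 1 library. Depth, library and treatment cannot be told apart, and a level per cell cannot be told apart from the mix of cells in the top 8%.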

Other observations

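Of 18 cell cycle genes, 14 were higher in treated than in untreated members at 24 h and 13 at 48 h, and 17 and 15 with TMM factors, where 29.4% and 46.6% of all genes were higher on totals. On totals 0 of the 18 were higher by 2-fold at either time, beside 4.37% and 5.39% of all genes. With TMM factors 6 were at 24 h and 0 at 48 h. The shares of all genes with TMM factors are not given here. The median log2 ratio was 0.42 and 0.31, and in other cells 0.17 and −0.08. In cells at or above the untreated score limit, 15 of 18 were higher at 24 h, with a median of 0.44, and 4 of 18 at 48 h, with a median of −0.18, the same as the median of all genes in that comparison, where 62.2% of all genes were lower. Stem cell genes had 2 of 12 higher at 24 h, with a median of −1.35, beside the 29.4% of all genes, and 6 of 12 at 48 h, with a median of 0.03, beside the 46.6% of all genes. In cells at or above the untreated limit 0 of 11 were higher at 24 h and 2 of 11 at 48 h, with medians of −1.27 and −0.94, where the medians of all genes were −0.36 and −0.18. Lgr5 had 67.0 CPM in untreated members, 17.3 CPM at 24 h and 49.2 CPM at 48 h. St6galnac4, a sialyltransferase, had 27.3, 48.9 and 38 CPM in members, while St6galnac6, of the same family, had 104, 6.71 and 5.76 CPM. These comparisons have 1 library per condition and no test.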
